A study of Mus musculus with 12 samples.

Results

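The messages of 9 RNA-binding proteins that package, store or translate germ cell mRNA were followed in sorted mouse spermatids by nanopore direct RNA sequencing, in which each read is 1 native poly(A) RNA molecule. The genes were Ybx1, Ybx2, Ybx3, Ddx25, Ddx6, Tarbp2, Celf1, Boll and Dazl. Their contigs, the reference transcripts to which reads were assigned, were found through the gene symbols paired with the count table. This gave 15 of 12114 contigs, from 6 of the 9 genes: 2 of Ybx1, 4 of Ybx2, 2 of Ybx3, 1 of Ddx25, 4 of Tarbp2 and 2 of Boll. Ddx6, Celf1 and Dazl were not analysed here. Contigs are named by symbol and the last digits of their Ensembl transcript number, so that Ybx1-079644 is ENSMUST00000079644.

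The 12 libraries came from round spermatids (RS), the early haploid cells, and elongated spermatids (ES), the late cells with a condensing nucleus, of adult males. Males were wt/wt or dcat/dcat at Tent5c, where the dcat allele encodes TENT5C without its poly(A) polymerase activity in every cell that expresses the gene. Each of the 4 groups had 3 libraries, and each library pooled mRNA from the spermatids of 3 mice. All groups shared the sort on DNA content and the selection on oligo(dT), and the line is a C57BL/6 line. The allele leaves the Tent5c message in place, so counts of Tent5c do not check the labels.

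Transcription stops during spermatid elongation, so late proteins are made from messages that were transcribed earlier and held in ribonucleoprotein particles. Y-box proteins coat such messages through a cold-shock domain that binds single-stranded nucleic acid, and YBX2 (MSY2) is the form restricted to germ cells. DDX25 (GRTH) is a testis DEAD-box RNA helicase needed to complete spermatid development, TARBP2 is a double-stranded RNA-binding protein needed for protamine translation and also a Dicer partner, and BOLL belongs to the DAZ family of translational activators.

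The 3 Y-box genes are paralogs, and their coding exons 2 to 4 have equal lengths in the main contigs. These exons encode most of the cold-shock domain and are shown because reads from paralogs could be exchanged only where their sequences are alike. Each run is written 5′ to 3′ from the transcript, with capitals at the positions where the 3 genes are not all the same.
Ybx1: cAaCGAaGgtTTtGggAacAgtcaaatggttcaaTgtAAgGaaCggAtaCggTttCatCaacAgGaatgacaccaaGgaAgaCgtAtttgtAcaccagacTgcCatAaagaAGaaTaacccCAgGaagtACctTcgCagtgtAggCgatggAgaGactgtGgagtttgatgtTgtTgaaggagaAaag
Ybx2: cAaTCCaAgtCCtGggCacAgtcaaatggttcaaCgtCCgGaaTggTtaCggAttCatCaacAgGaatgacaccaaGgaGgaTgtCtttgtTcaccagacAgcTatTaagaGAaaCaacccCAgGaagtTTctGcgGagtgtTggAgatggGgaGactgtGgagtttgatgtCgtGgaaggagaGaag
Ybx3: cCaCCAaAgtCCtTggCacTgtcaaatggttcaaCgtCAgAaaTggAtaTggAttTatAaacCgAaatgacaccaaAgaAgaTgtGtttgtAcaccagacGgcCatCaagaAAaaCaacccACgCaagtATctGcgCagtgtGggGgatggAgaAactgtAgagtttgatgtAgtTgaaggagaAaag
Over the 188 bases, 140 were the same in all 3 genes and 48 were not. Identity was 82.4% between Ybx1 and Ybx2, 81.4% between Ybx1 and Ybx3 and 81.9% between Ybx2 and Ybx3, and the longest run without a difference was 26 bases. On GRCm38 the Ybx1 exons lie on the minus strand of chromosome 4 (exon 2 at chr4:119293742-119293805), those of Ybx2 on the plus strand of chromosome 11 (exon 2 at chr11:69936897-69936960) and those of Ybx3 on the minus strand of chromosome 6 (exon 2 at chr6:131384503-131384566).

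Contigs of a gene share exons, and the parts shown next are among those that tell them apart. Ybx3-032309 and Ybx3-087865 differ in an exon of 207 bases, or 69 codons, on the minus strand at chr6:131375974-131376180, shown in capitals with 20 bases of each neighbouring exon.
Ybx3 exon 6: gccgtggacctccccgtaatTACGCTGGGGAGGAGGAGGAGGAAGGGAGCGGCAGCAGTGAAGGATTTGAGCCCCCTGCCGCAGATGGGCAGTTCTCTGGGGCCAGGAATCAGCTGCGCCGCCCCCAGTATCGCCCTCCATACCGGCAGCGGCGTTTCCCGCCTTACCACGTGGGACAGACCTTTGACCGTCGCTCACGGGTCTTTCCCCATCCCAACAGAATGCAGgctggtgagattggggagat
Ybx2-018698 and Ybx2-108601 differ in their first exon, which carries 274 coding bases in the former and 43 in the latter. The last 43 coding bases of each first exon are in capitals, at chr11:69936206-69936248 and chr11:69936423-69936465 on the plus strand, followed by the shared second exon.
Ybx2-018698: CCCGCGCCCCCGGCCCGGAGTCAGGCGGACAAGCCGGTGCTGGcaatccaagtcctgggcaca
Ybx2-108601: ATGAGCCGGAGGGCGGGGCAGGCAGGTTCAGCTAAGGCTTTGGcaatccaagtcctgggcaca
Tarbp2-131184, annotated as a target of nonsense-mediated decay, has no exon with the same ends as an exon of 103 bases in Tarbp2-023813 (plus strand, chr15:102520475-102520577). It has 7 exons over 1819 bases, against 9 over 1523, and whether a longer exon of it holds these bases was not tested. The length of 103 is not a multiple of 3, so leaving out just these bases would shift the reading frame.
Tarbp2 exon 3: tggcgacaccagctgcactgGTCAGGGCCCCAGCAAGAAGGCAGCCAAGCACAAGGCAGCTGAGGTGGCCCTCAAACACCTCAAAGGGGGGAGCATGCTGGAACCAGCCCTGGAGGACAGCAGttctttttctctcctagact
Boll-173983 and Boll-114423 have different 3′ ends, which direct RNA reads reach first. Capitals mark the coding bases that the other contig lacks, on the minus strand at chr1:55270645-55270665 and chr1:55300072-55300086.
Boll-173983: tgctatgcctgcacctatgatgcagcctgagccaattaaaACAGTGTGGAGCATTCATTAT
Boll-114423: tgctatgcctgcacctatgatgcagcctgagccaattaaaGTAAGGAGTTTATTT
The table gives no read lengths, so how many reads covered these parts is unknown, and values of contigs of the same gene are uncertain to that extent. The gene annotation used is GENCODE vM21.

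Total counts were between 337287 and 1359427 per library, and all 15 contigs passed the filter on low counts. Values below are counts per 1000000 counts of the TMM-scaled library (CPM), and the floor of 3 counts stood at 1.77 to 10.6 CPM. Of the fixed marker genes, all 10 of elongated spermatids were present and their summed level was 20722 to 43769 CPM in RS against 220834 to 288883 CPM in ES. The 10 of round spermatids summed to 1892 to 2318 CPM in RS and 2486 to 3083 CPM in ES, so this list was not higher in the libraries labelled RS. Markers of Sertoli cells (5 of 14 genes) summed to 6.41 to 43.3 CPM in RS and 212 to 412 CPM in ES, those of Leydig cells (7 of 12 genes) to 69.0 to 129 CPM and 290 to 1069 CPM, and those of meiotic cells (9 of 16 genes) to 660 to 890 CPM and 410 to 523 CPM. The 1 of 8 macrophage and blood markers, C1qb, was at 3.21 to 8.28 CPM and 35.3 to 62.8 CPM, and the 2 of 10 spermatogonial markers summed to 533 to 888 CPM and 236 to 417 CPM. Sox9, Wt1, Amh, Star and Hsd3b1 were not analysed here. Insl3 and Ptgds of the Leydig list are also followed in spermatids by the study. These lists moved with stage, and their part in the stage results below was not tested. Fewer cells that hold a message and less of it per cell cannot be told apart in such libraries.

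The first question was whether these messages kept their place in the RNA pool from RS to ES. In wt/wt, 4 of the 15 contigs were lower in ES and 0 were higher by edgeR's quasi-likelihood test with Benjamini-Hochberg adjustment over 11831 contigs, of which 40.3% were called, 23.8% higher and 16.5% lower. The 4 were Ddx25-034612, Tarbp2-023813, Tarbp2-131184 and Boll-114423. In dcat/dcat 2 were lower, Ddx25-034612 and Tarbp2-023813, and 0 were higher, where 41.0% of all contigs were called, 24.0% higher and 16.9% lower. No contig of a Y-box gene was called in either genotype in this fit. With the library number as a block, 3 contigs of Y-box genes were called in wt/wt and 5 in dcat/dcat. That fit called more of all 11831 contigs as well, 6105 in wt/wt and 6145 in dcat/dcat. The ES libraries lay wholly below the RS libraries for 5 of the 15 contigs in wt/wt, against 27.3% of all contigs, and for 5 in dcat/dcat, against 25.2%. The median log2 difference of the 15 was -0.52 in wt/wt and -0.40 in dcat/dcat, where that of all contigs was -0.24 and -0.18. Tarbp2-131184, Tarbp2-136968, Tarbp2-100168 and Boll-114423 had passed the filter through the RS groups alone, so a low level in ES was built into their selection and their stage values are no support for a difference.

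**Figure D1:**
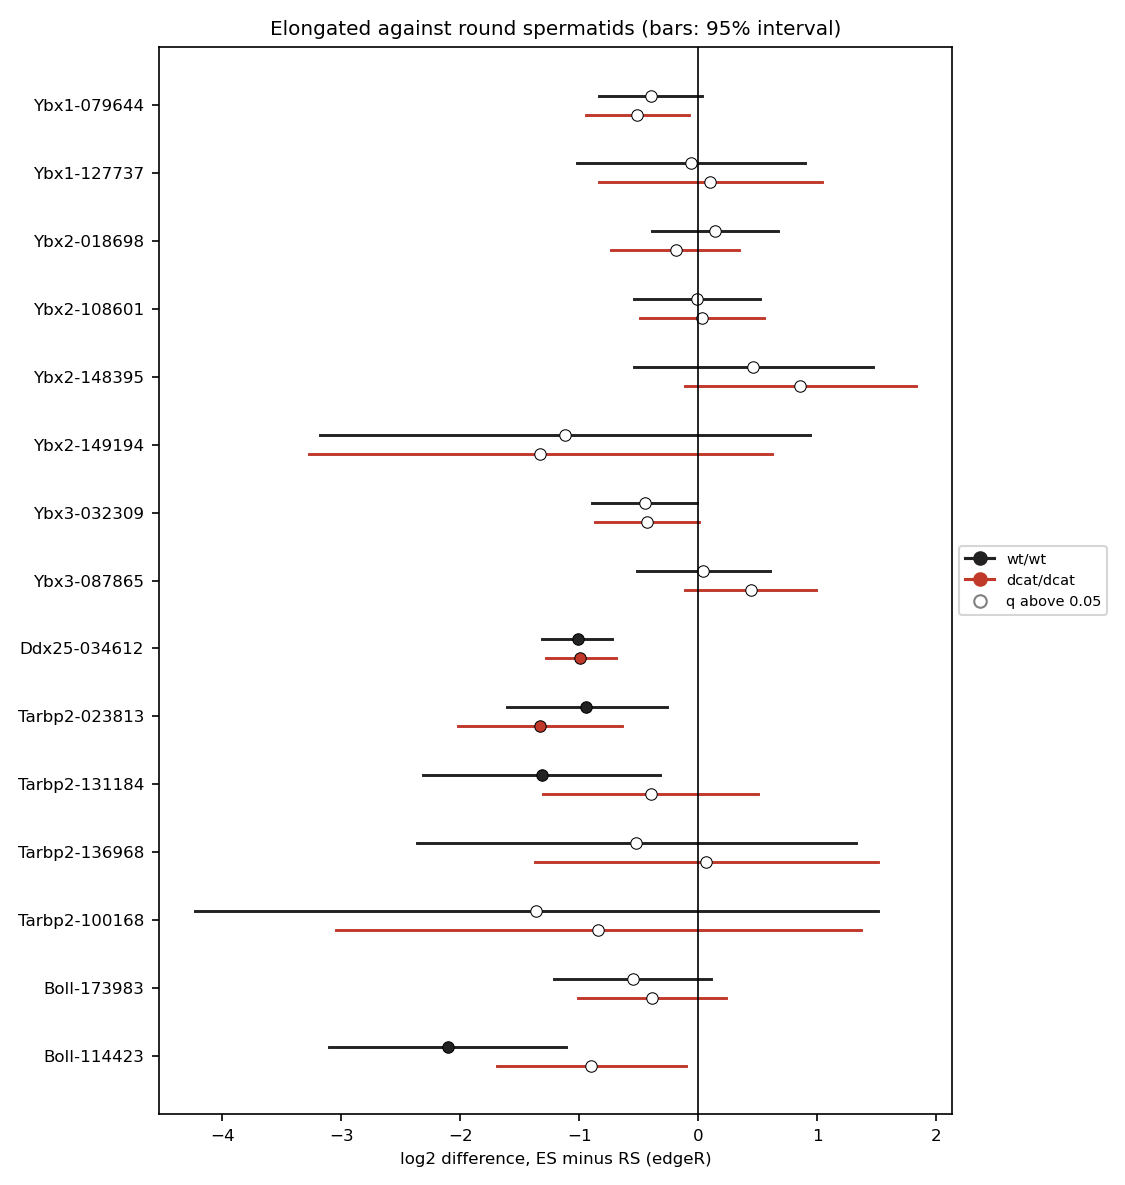
Log2 difference between ES and RS (x axis) for each of the 15 contigs (y axis), in wt/wt (black) and dcat/dcat (red). Points are edgeR estimates, bars are 95% intervals and open points have q above 0.05; Ddx25-034612 and Tarbp2-023813 are filled in both genotypes, and the 8 contigs of Y-box genes are open.

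Ddx25 gave the clearest difference. Its contig (chromosome 9 from 35536647 to 35558528, minus strand, 12 exons) stood at 631, 698 and 673 CPM in the 3 RS wt/wt libraries and at 315, 321 and 357 CPM in ES wt/wt. In dcat/dcat the values were 702, 679 and 677 CPM in RS and 313, 357 and 366 CPM in ES. All 6 RS libraries were above all 6 ES libraries, and replicates lay close together. The mean fell from 668 ± 33.8 to 331 ± 22.5 CPM in wt/wt (SD, n = 3), a log2 difference of -1.01 (SE 0.139, q 5.25e-05 by edgeR), and from 686 ± 13.7 to 345 ± 28.5 CPM in dcat/dcat, a log2 difference of -0.99 (SE 0.138, q 6.54e-05). The helicase message therefore stood about 2.02-fold lower in ES than in RS of wt/wt males, relative to the bulk of contigs.

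Tarbp2 fell as well. Its main contig, Tarbp2-023813 (chromosome 15 from 102518459 to 102523676, plus strand, 83.3% of the counts of the gene), was at 285, 224 and 197 CPM in RS wt/wt and at 156, 68.5 and 148 CPM in ES wt/wt. In dcat/dcat it was at 282, 198 and 192 CPM in RS and at 132, 67.4 and 69.2 CPM in ES. The stages did not overlap in either genotype, but the spread within each group was wide. The log2 difference was -0.94 in wt/wt (SE 0.317, q 0.0290 by edgeR) and -1.33 in dcat/dcat (SE 0.323, q 0.00441). In wt/wt the call was lost without RS library 1 (-0.78, q 0.0844), RS library 2 (-0.97, q 0.0505) or ES library 2 (-0.55, q 0.218).

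The minor Tarbp2 contigs rested on few reads and had passed the filter through the RS groups alone, so their stage values are no support for a difference. In wt/wt, the RS libraries held 25, 14 and 28 reads of Tarbp2-131184 and the ES libraries 1, 4 and 4. In dcat/dcat the RS libraries held 12, 14 and 20 and the ES libraries 6, 4 and 7. Its log2 difference was -1.31 in wt/wt (q 0.0360 by edgeR) and -0.40 in dcat/dcat (q 0.462). The call did not hold under DESeq2 (adjusted p 0.0883), in a fit of both wt/wt groups alone (q 0.0701), or without RS wt/wt library 1 or 2, ES wt/wt library 1 (-0.74, q 0.243) or 2, or ES dcat/dcat library 3. Tarbp2-136968, annotated with a retained intron, had 35 counts over RS wt/wt and 8 over ES wt/wt, an ES level of 0.666 times that in RS with a 95% exact interval of 0.267 to 1.46 for counting error. Tarbp2-100168 had at most 30 counts in any library, and its log2 differences of -1.36 and -0.84 had SEs of 1.34 and 1.03.

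Boll was the least counted of the 6 genes. Boll-173983 (chromosome 1 from 55268856 to 55360741, minus strand) was at 36.6, 28.6 and 27.8 CPM in RS wt/wt and at 23.2, 19.0 and 21.2 CPM in ES wt/wt. It was at 41.7, 36.7 and 33.0 CPM in RS dcat/dcat and at 18.5, 37.5 and 28.7 CPM in ES dcat/dcat, where the stages overlapped. Its log2 differences of -0.55 (SE 0.308, q 0.168) and -0.39 (SE 0.290, q 0.293) did not pass.

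Boll-114423, the contig with the upstream 3′ end, had lower values in ES of wt/wt males. It had passed the filter through the RS groups alone, so the values below are no support for a difference. The RS wt/wt libraries held 24, 10 and 32 of its reads and the ES wt/wt libraries 2, 2 and 1. The ratio of RS to ES over these libraries was 4.53, with a 95% exact interval of 1.85 to 14.4 for counting error, and the fitted log2 difference was -2.10 (SE 0.466, q 0.00238 by edgeR). In dcat/dcat the counts were 21, 17 and 19 in RS and 5, 5 and 5 in ES, with a log2 difference of -0.90 (SE 0.372, q 0.0663). The value in dcat/dcat did not pass, and the interaction test did not call the contig.

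Among the Y-box messages, the main contigs of Ybx1 and Ybx3 stood lower in ES by estimate, and neither passed in the main fit. Both passed in both genotypes with the library number as a block and with total counts only. They also passed with at least 10 counts in every library. There Ybx1-079644 had q 0.00363 in wt/wt and 0.00220 in dcat/dcat by edgeR, and Ybx3-032309 0.00314 and 0.00546. That run called 2588 of all 3719 contigs in wt/wt and 2562 in dcat/dcat. Some runs that left out a library called Ybx1-079644 in dcat/dcat or Ybx3-032309 in wt/wt. Ybx1-079644 (chromosome 4 from 119277981 to 119294604, minus strand) carried 97% of the counts of Ybx1 and was at 995, 708 and 920 CPM in RS wt/wt and at 794, 493 and 699 CPM in ES wt/wt. In dcat/dcat it was at 1015, 751 and 987 CPM in RS and at 733, 557 and 647 CPM in ES. Each ES library was below the RS library of the same number and genotype, while the wt/wt groups overlapped. The log2 difference was -0.40 in wt/wt (95% interval -0.83 to 0.03, q 0.123 by edgeR) and -0.51 in dcat/dcat (-0.94 to -0.08, q 0.0553). Ybx1-127737, a shorter contig with 214 codons and the other 244 counts of the gene, was at 17.4, 26.2 and 32.5 CPM in RS wt/wt against 8.45, 32.3 and 35.3 CPM in ES wt/wt. In dcat/dcat it was at 25.6, 22.3 and 28.0 CPM in RS and at 13.9, 27.5 and 38.8 CPM in ES. It overlapped between stages, with log2 differences of -0.06 (q 0.932) and 0.10 (q 0.871).

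Ybx2-018698 (chromosome 11 from 69935796 to 69941605, plus strand), 63.6% of the counts of the germ cell gene, was at 944, 561 and 704 CPM in RS wt/wt and at 940, 542 and 960 CPM in ES wt/wt. In dcat/dcat it was at 950, 632 and 882 CPM in RS and at 860, 577 and 716 CPM in ES. The stages overlapped in both genotypes. Log2 differences were 0.14 in wt/wt (95% interval -0.39 to 0.67, q 0.676) and -0.19 in dcat/dcat (-0.73 to 0.34, q 0.557), so changes of up to these bounds could not be told from 0. Ybx2-108601, the contig with the downstream first exon and 26.5% of the counts, was at 222, 311 and 328 CPM in RS wt/wt and at 232, 306 and 318 CPM in ES wt/wt. In dcat/dcat it was at 250, 334 and 469 CPM in RS and at 301, 322 and 449 CPM in ES. Both stages thus held nearly the same levels, and the contig differed by -0.01 (q 0.978) and 0.03 (q 0.939). Ybx2-148395, annotated with a retained intron, ranged from 41.7 to 109 CPM in RS and from 48.6 to 208 CPM in ES and differed by 0.46 (q 0.448) and 0.86 (q 0.144), and Ybx2-149194, a contig with 164 codons, by -1.12 (q 0.369) and -1.33 (q 0.259).

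Ybx3-032309 (chromosome 6 from 131364855 to 131388438, minus strand), the form with the 69-codon exon and 73.6% of the counts of Ybx3, was at 941, 592 and 812 CPM in RS wt/wt and at 710, 432 and 579 CPM in ES wt/wt. In dcat/dcat it was at 832, 696 and 817 CPM in RS and at 642, 489 and 608 CPM in ES, where the groups did not overlap. Its log2 difference was -0.45 in wt/wt (SE 0.207, q 0.0965) and -0.43 in dcat/dcat (SE 0.206, q 0.108). Ybx3-087865, the form without that exon, was at 233, 237 and 253 CPM in RS wt/wt and at 171, 257 and 325 CPM in ES wt/wt, and at 187 to 322 CPM in RS dcat/dcat and at 239 to 393 CPM in ES dcat/dcat. Its stages overlapped in both genotypes, with log2 differences of 0.04 (q 0.909) and 0.44 (q 0.186). The direction of the difference thus differed between both forms in dcat/dcat, but neither passed in the main fit.

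**Figure D2:**
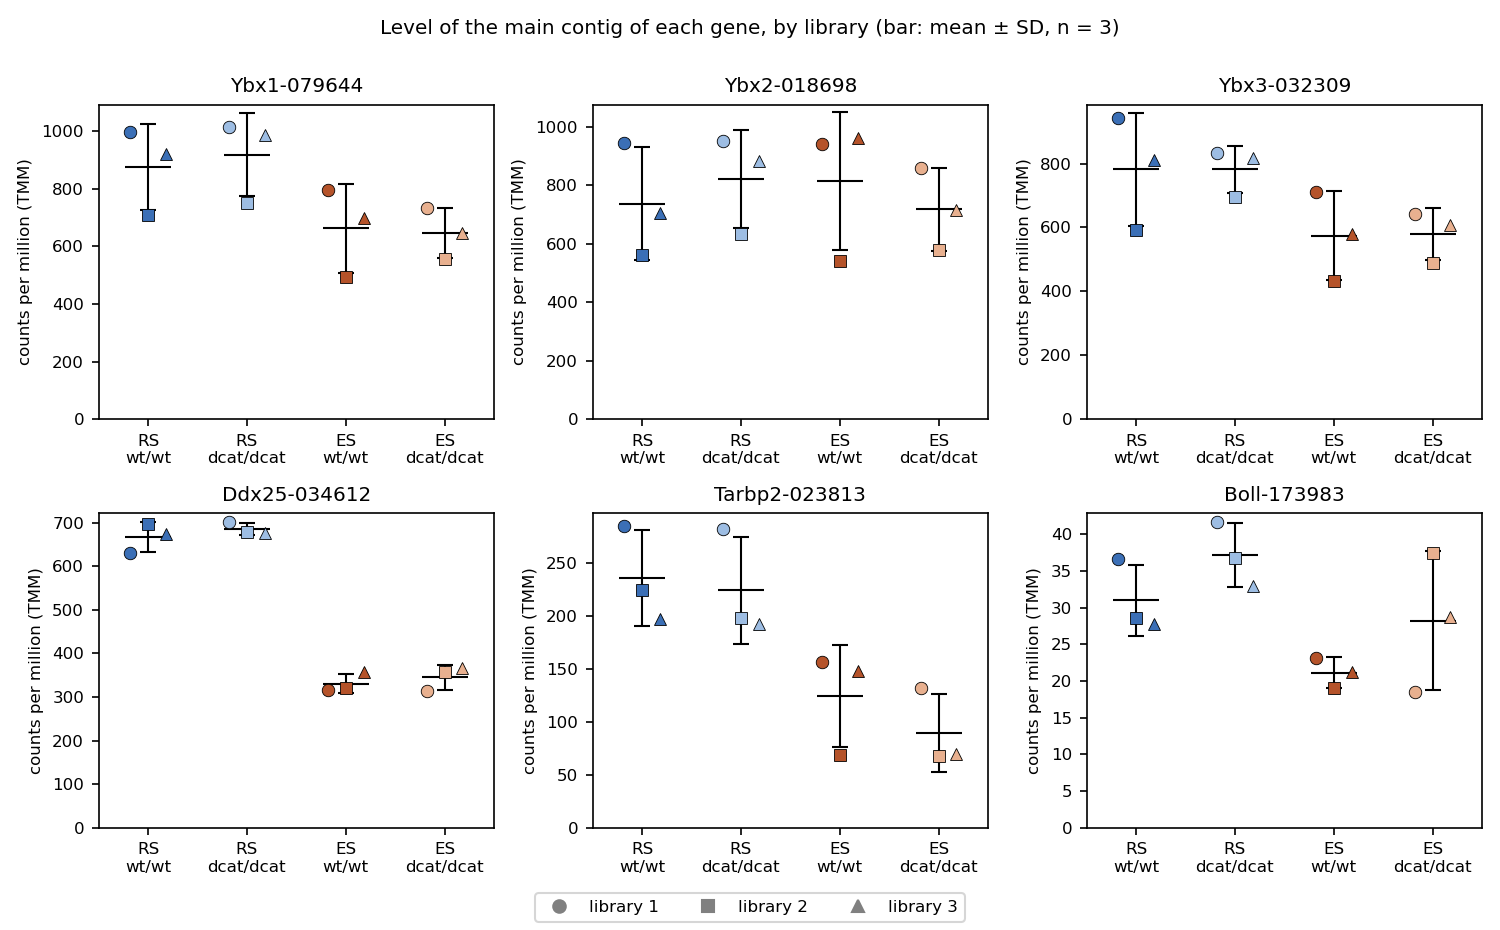
Level of the main contig of each of the 6 genes in CPM (y axis, from 0) in each library of the 4 groups (x axis). Marker shape gives the library number, horizontal bars the mean and vertical bars the SD of 3 libraries; Ddx25-034612 lies at 631 to 702 CPM in RS and at 313 to 366 CPM in ES, while Ybx2-018698 overlaps between stages.

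RS and ES were sorted from the same mice per the study's methods, with 1 mouse of each genotype in each sorting session, but which mice went into which numbered pool is not given. Same-numbered libraries deviated together in dcat/dcat (correlations 0.59, 0.32 and 0.36) but not at every number in wt/wt (0.45, 0.43 and -0.13). A fit with the library number as a block called 7 of the 15 contigs in dcat/dcat in place of 2. That fit called 6145 of all 11831 contigs there, in place of 4849. The 5 added were Ybx1-079644 (log2 difference -0.51, q 0.00325), Ybx3-032309 (-0.44, q 0.0119) and Ybx2-149194 (-1.35, q 0.00160), lower in ES, and Ybx3-087865 (0.44, q 0.0315) and Ybx2-148395 (0.82, q 0.00171), higher in ES. In wt/wt the block called 7 in place of 4, beside 6105 of all 11831 contigs in place of 4766. The 3 added were Ybx1-079644 (-0.41, q 0.0145), Ybx3-032309 (-0.45, q 0.0107) and Ybx2-149194 (-0.93, q 0.0392), all lower. With the block the Ybx3 form without the 69-codon exon was thus higher in ES of dcat/dcat males and the form with it lower, while in wt/wt the former was at 0.00 (q 0.984). The interaction test with the block called 0 of the 15 contigs and 0 of all 11831, so no difference between genotypes was shown here. With total counts only, which shifted the median contig to -0.96 in wt/wt and -0.85 in dcat/dcat, the contigs shifted with it and 8 and 9 of the 15 were called, all lower. That fit called 7364 of all 11831 contigs in wt/wt and 6959 in dcat/dcat.

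Counts summed by gene, in a fit of 6866 genes of which 49.0% were called in each genotype, 23.4% lower in wt/wt and 23.0% in dcat/dcat, called Ddx25 and Tarbp2 in both and Boll in wt/wt. Ddx25 differed by -0.88 (q 8.83e-05) in wt/wt and -0.84 (q 0.000128) in dcat/dcat, and Tarbp2 by -0.82 (q 0.00148) and -0.96 (q 0.000337). In wt/wt the Boll sum was at -0.80 (q 0.0167). That sum includes Boll-114423, which had passed the filter through the RS groups alone. Boll-173983 by itself was not called there (-0.55, q 0.168). A low level in ES was thus built into part of the sum, and the Boll call is no support for a difference. In dcat/dcat the Boll sum was at -0.40 and was not called (q 0.172). Ybx1, Ybx2 and Ybx3 differed by -0.25, 0.24 and -0.17 in wt/wt and by -0.34, 0.07 and -0.02 in dcat/dcat, and none of them passed (q 0.116 to 0.937).

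The second question was whether the loss of TENT5C activity changed these messages. In RS, in ES and in the stage by genotype interaction, 0 of the 15 contigs were called by edgeR, as were 0% of all 11831 contigs, and DESeq2 called 0 of the 15 as well. Unadjusted p lay under 0.05 for 0 of the 15 in RS against 0.828% of all contigs, for 1 in ES against 3.01%, and for 0 in the interaction against 1.44%. The genotypes did not overlap for 0 of the 15 in RS and for 1 in ES, against 5.31% and 7.66% of all contigs. A block for the library number, at which libraries deviated together in RS, left the count there at 0 of 15.

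Ddx25 bounded the genotype difference most tightly, at 0.04 on the log2 scale in RS (95% interval -0.25 to 0.33) and 0.07 in ES (-0.24 to 0.37). For Ybx1-079644 the differences were 0.07 (-0.35 to 0.49) and -0.03 (-0.47 to 0.40), for Ybx2-018698 0.16 (-0.37 to 0.68) and -0.18 (-0.72 to 0.36), and for Ybx3-032309 -0.00 (-0.44 to 0.43) and 0.02 (-0.43 to 0.46). Tarbp2-023813 differed by -0.07 (-0.71 to 0.57) and -0.46 (-1.19 to 0.26), and Boll-173983 by 0.26 (-0.30 to 0.81) and 0.41 (-0.30 to 1.13). Over all 15 contigs the differences ran from -0.18 to 0.77 in RS, with a median of 0.16, and from -0.46 to 1.41 in ES, with a median of 0.33, where the median of all contigs was 0.01 in each. The 3 at the top in ES, Boll-114423, Tarbp2-136968 and Tarbp2-100168, had few reads, at 1.41, 1.30 and 1.30 with SEs of 0.544, 0.883 and 1.49. Among the Y-box contigs the highest ES value was 0.58 (SE 0.474) for Ybx2-148395, followed by 0.46 (SE 0.263) for Ybx3-087865.

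The contig under 0.05 in ES was Boll-114423, named for being the only one, after its values were seen. It had 2, 2 and 1 counts in ES wt/wt and 5 in each ES dcat/dcat library, a log2 difference of 1.41 (SE 0.544, unadjusted p 0.0395 by edgeR, not called after adjustment). Its level in wt/wt was at or under the floor of 3 counts in every library, and the ratio of 15 to 5 reads, scaled by library size, was 2.70 with a 95% exact interval of 0.933 to 9.50 for counting error. The sum over both Boll contigs differed by 0.64 (unadjusted p 0.0447 by edgeR, not called after adjustment). Without ES dcat/dcat library 1, 4 of the 15 contigs were under 0.05 in ES, and without ES wt/wt library 1 or ES dcat/dcat library 2 none was. The share of all contigs under 0.05 in those runs was not computed, so these counts have no background to be read against.

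**Figure D3:**
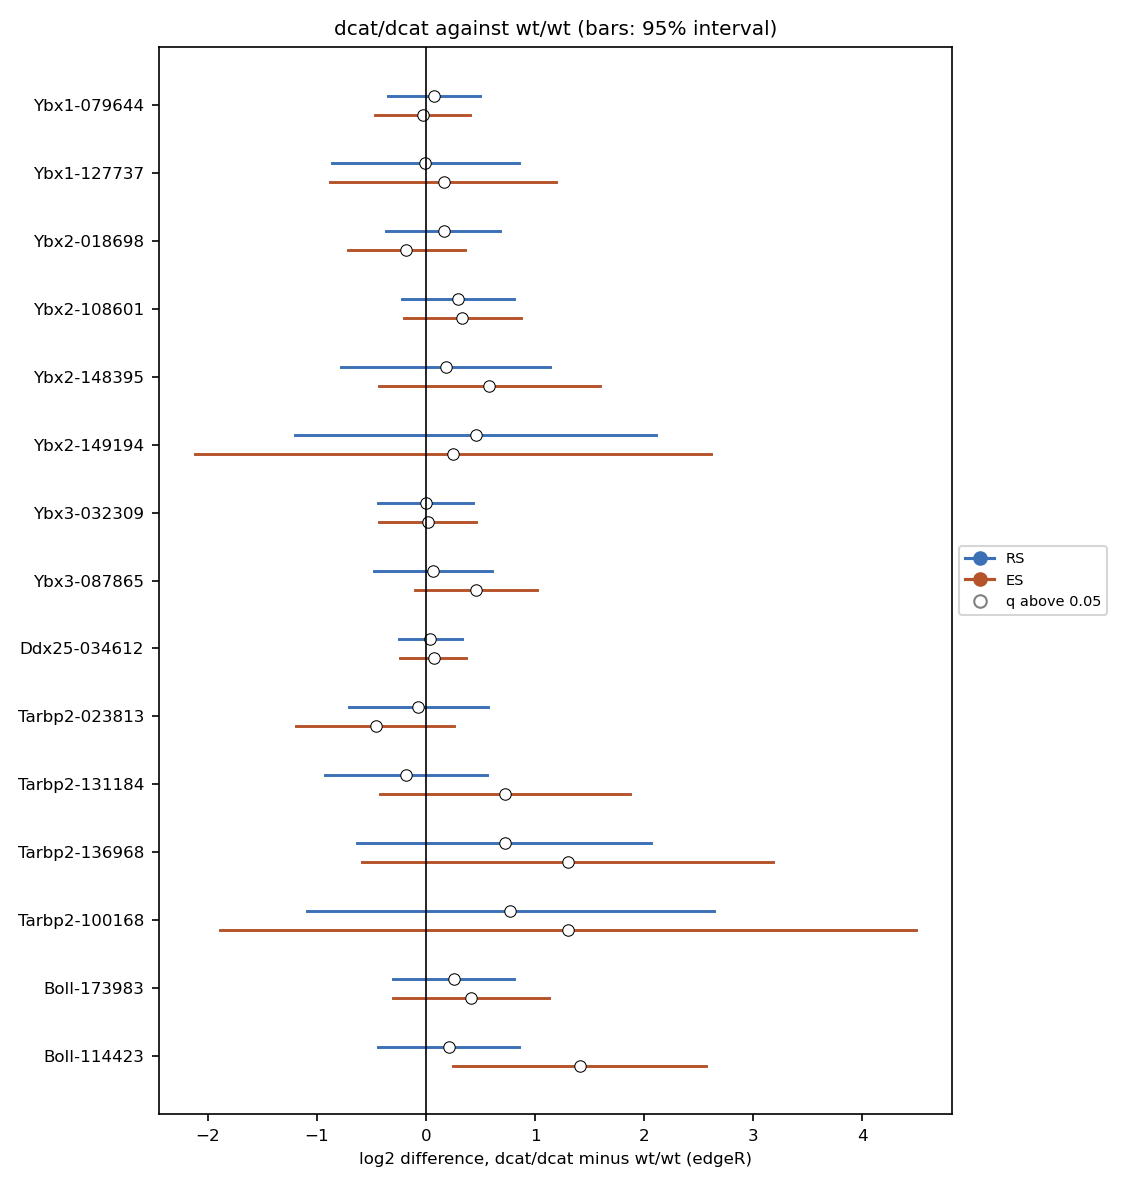
Log2 difference between dcat/dcat and wt/wt (x axis) for the 15 contigs (y axis), in RS (blue) and ES (brown). Points are edgeR estimates and bars 95% intervals, and all points are open, since every q was above 0.05. The interval of Boll-114423 in ES, from 0.25 to 2.57, is the only one that leaves out 0. It rests on 5 and 15 reads, and their exact ratio interval of 0.933 to 9.50 for counting error includes equal levels.

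The third question was whether the mix of contigs within a gene changed. The share of the main contig was compared for the 4 genes with at least 20 counts in every library, by an exact two-sided permutation test within the other factor (400 arrangements, smallest p 0.00500). Ybx3-032309 took 75.8% of Ybx3 counts in RS and 66.1% in ES, a difference of -9.75 percentage points (exact permutation p 0.0550, q 0.220 over 4 genes). The difference between stages was -6.27 points for Tarbp2 (p 0.320), -1.64 for Ybx2 (p 0.790) and -1.24 for Ybx1 (p 0.235) by the same exact test. Between genotypes it was -10.3 points for Tarbp2 (exact permutation p 0.145, q 0.580) and -4.57 for Ybx2, -3.13 for Ybx3 and 0.0659 for Ybx1. None passed. Boll had too few counts for the test, and Boll-173983 took 64.9 ± 5.55% of its counts in RS wt/wt, 84.6 ± 1.19% in ES wt/wt, 65.0 ± 2.79% in RS dcat/dcat and 71.3 ± 8.50% in ES dcat/dcat (SD, n = 3).

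These shares also moved with the library number. In all 4 groups the library numbered 1 had the highest share on the main contig of Ybx1, Ybx2, Ybx3 and Tarbp2. For Ybx2-018698 the share was 70.5 to 77.9% in the 4 libraries numbered 1 and 51.1 to 68.2% in the other 8, and for Tarbp2-023813 it was 89.1 to 94.9% and 57.7 to 85.7%. Ybx2-108601, Ybx2-148395, Ybx2-149194 and Ybx3-087865 were lowest in library 1 in all 4 groups, while Ybx1-127737, Tarbp2-136968 and Tarbp2-100168 were lowest in 3. Tarbp2-131184 went both ways, lowest in library 1 in 2 groups and highest in 2. Ybx2-149194 had counts of 4, 5, 3 and 3 in the libraries numbered 1 against 4 to 108 in the others. Tarbp2-100168 had 0, 1, 1 and 0 counts in the libraries numbered 1. Boll did not show this in any of the 4 groups. Among the 1347 genes with several contigs and at least 20 counts in every library, 38.9% had their main contig's share highest in library 1 of all 4 groups and 4.08% had it lowest. What the library number stands for was not stated, and its part in the contig values was not tested. Without the 4 libraries numbered 1, 4 contigs were called between stages in wt/wt and 5 in dcat/dcat, an alternative chosen after seeing the data. Of all 10290 contigs tested there, 4495 and 4778 were called. Ddx25-034612, Tarbp2-023813 and Ybx2-149194 were among the member contigs called in both genotypes.

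**Figure D4:**
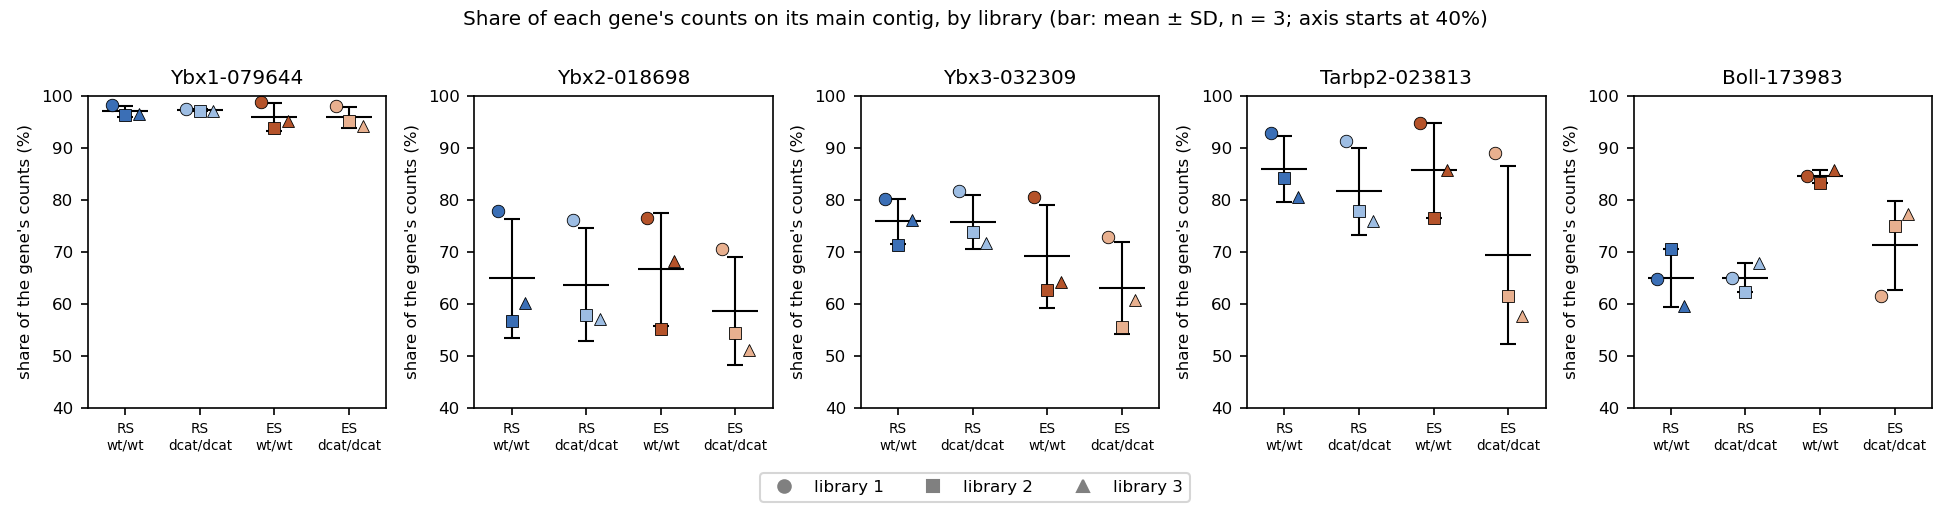
Share of a gene's counts that fell on its main contig (y axis, percent, from 40) in each library of the 4 groups (x axis), for the 5 genes with several contigs. Marker shape gives the library number and bars the mean ± SD of 3 libraries; circles, the libraries numbered 1, are highest in every group for Ybx1, Ybx2, Ybx3 and Tarbp2.

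Genes that act with these proteins were read from lists. Of 13 partners of DDX6 and decapping factors, 6 genes had 9 contigs, of which 2 were lower and 0 higher in ES of wt/wt males and 0 were called in dcat/dcat, where 16.5% and 16.9% of all contigs were called lower, with medians of -0.72 and -0.38. Both called contigs belonged to Cnot1, the scaffold of the CCR4-NOT deadenylase, at -0.89 (q 0.0298) and -0.83 (q 0.0183). Another Cnot1 contig at -0.65 (q 0.365) and Dcp1b, a decapping cofactor, at -0.72 (q 0.150) were not called. Of 7 partners of DAZ-family proteins, 5 genes had 8 contigs, of which 2 were lower in wt/wt and 1 in dcat/dcat and 0 higher, beside the same shares of all contigs, with medians of -0.02 and 0.15. They included Pabpc1, the cytoplasmic poly(A)-binding protein, at -0.67 (q 0.0131) and -0.55 (q 0.0364), and Dazap2 at -0.73 (q 0.0162) and -0.45 (q 0.114). Both Dzip1 contigs were not called, with wt/wt values of 0.26 (q 0.534) and 0.62 (q 0.141) and dcat/dcat values of 0.63 (q 0.123) and 0.13 (q 0.773). Of 9 partners of TARBP2 only Prkra, another double-stranded RNA-binding protein, had a contig, and it differed by -0.76 (q 0.127) and 0.04 (q 0.950).

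Among 30 other RNA-binding regulators of translation in germ cells, 24 genes had 43 contigs. In wt/wt 6 were higher and 6 lower in ES, in dcat/dcat 8 and 6, beside the shares of all contigs given above, and the medians of -0.22 and -0.06 lay near those of all contigs. Pabpc2, a testis poly(A)-binding protein, was lower in ES, with log2 differences of -0.83 in wt/wt (q 0.000279) and -0.85 in dcat/dcat (q 0.000223). Papolb, the testis-specific cytoplasmic poly(A) polymerase, was at 0.11 (q 0.564) and 0.32 (q 0.0809), and Fxr1, an RNA-binding translational regulator, at 0.61 (q 0.334) and 0.64 (q 0.323).

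Messages known to be stored and translated late were read as well. Of 26 contigs from 14 such genes, 23 were higher and 0 lower in ES in each genotype, against 23.8% of all contigs higher in wt/wt and 24.0% in dcat/dcat, with medians of 2.59 and 2.34. The difference between this list and the 15 contigs was not tested. Prm1, which encodes a protamine, was 3.10 higher on the log2 scale in wt/wt (q 1.87e-06) and 2.98 in dcat/dcat (q 3.17e-06), and Tnp1, a transition protein, 2.85 and 2.78. A contig of Akap4, a fibrous sheath protein, was at 1.27 (q 0.319) and 2.07 (q 0.117) and one of Gapdhs, the sperm glycolytic enzyme, at 0.53 (q 0.726) and 1.67 (q 0.245), and neither was called. Between genotypes, 0 contigs of any of these 5 lists were called in RS or ES, with 0 and 3 at an unadjusted p under 0.05, all 3 among the other RNA-binding regulators.

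The genes most like each member were found by Pearson's r of log2(CPM + 1) of gene sums over the 12 libraries, among 3211 genes with at least 10 counts in every library besides the member. For Ddx25 they were Phospho2 (r = 0.995) and Pabpc2 (0.993), and for Tarbp2 Gm128 (0.978) and Ccnb2 (0.972), the B-type cyclin of the cell cycle. For Ybx1 they were Pnpla2 (0.921) and Ldha (0.908), for Ybx2 Eef2 (0.933), the translation elongation factor, and Bag6 (0.860), and for Ybx3 Prdx6 (0.832) and Abhd8 (0.821). For Boll, against 3212 genes, they were Adam32 (0.901) and Psmd2 (0.889). These values describe 12 libraries that fall into 4 groups and share depth and library number within them.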

How the data were processed

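Reads had been made by the authors with the direct RNA kit on poly(A) RNA, base-called with Guppy, aligned with minimap2 to GENCODE vM17 genes on GRCm38 and kept when Nanopolish passed the tail and Deeplexicon the barcode. What they deposited is 1 table of raw read counts by contig, not normalized, filtered per the methods on 10 reads in 2 replicates of a condition, which 11831 of its 12114 contigs met. The authors' DESeq2 tables held fold changes and adjusted p-values, and only their symbol column was used, which the deposited tables give as text. Poly(A) selection, the tail filter and assignment among transcripts can change counts.

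Counts were fitted with edgeR 4.0.16 (R 4.3.3) over all 12 libraries with TMM scaling and 1 mean per group, after keeping those 11831 contigs, and were called at q at or under 0.05. SE is the log2 difference divided by the square root of F. DESeq2 1.42.0 was the alternative tool, and the scripts were tested on simulated data. The q values are Benjamini-Hochberg adjusted over all contigs. Total counts were 337287 to 1359427 per library. Exact intervals on ratios of counts and the floor of 3 counts cover counting error only. Intervals on log2 differences were built from the SE of the fit and so include the spread between libraries. Groups came from the sample labels. Same-numbered libraries were said to deviate together where the correlation of their deviations from the group means was over 0.1 for all 3 numbers. This held between genotypes in RS (0.74, 0.45 and 0.56) and between stages in dcat/dcat (0.59, 0.32 and 0.36). The main fit and the share tests treated libraries as unpaired all the same, and the library number entered only the fits with a block. Per the methods RS and ES came from the same mice, but the mice of each numbered pool are not given, and p-values measure the spread between pools. Positions came from GENCODE vM21, on the same build. The members and lists were chosen with earlier results of these data known. All contigs of the members were named, and for each list the 2 called and the 2 not called contigs with most counts. For the closing section, results were recomputed with other scalings, filters and tools, by gene, with a replicate block, within the groups compared and without each library.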

Additional observations from a re-analysis of the deposited data

How the results depend on the processing

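Of the 6 stage calls on single contigs, none changed direction under any alternative run, and 4 kept their side of the threshold wherever they could be fitted: Ddx25-034612 in both genotypes, Tarbp2-023813 in dcat/dcat and Boll-114423 in wt/wt, whose low level in ES was part of its selection. The count of contigs called between stages moved from 4 to 8 in wt/wt and from 2 to 9 in dcat/dcat with total counts only, which shifts the median contig, and to 7 in each with the replicate block. It moved to 4 in dcat/dcat with at least 10 counts in every library, and to 5 there without the 4 libraries numbered 1. With at least 10 counts in every library, only 8 member contigs were tested. That run called 2562 of all 3719 contigs in dcat/dcat and 2588 in wt/wt. Its called members in each genotype were Ybx1-079644, Ybx3-032309, Ddx25-034612 and Tarbp2-023813. The wt/wt count thus stayed at 4 with a changed set, of which 2 were shared with the main fit. Leaving out each library gave counts of 2 to 4 in wt/wt (2 without RS library 1 or ES library 2) and 2 to 4 in dcat/dcat (4 without ES library 1). In the runs named here, in that order, 4203 of 11078, 3332 of 11719 and 4553 of 11759 contigs were called. With the number as a pairing, 11 of 12 libraries correlated best with their own number. The block changed no genotype or interaction call, and the share tests were not run with it. Counts for genotype, interaction and shares were 0 under every alternative run made for them. The fit of only the groups compared was not run for the interaction, which already used all groups, and sums by gene give no value for a contig.

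Several differences that were not called changed sign, and the cause was not tested. With total counts only, the wt/wt stage values were -0.57 for Ybx2-018698, -0.23 for Ybx2-148395 and -0.66 for Ybx3-087865, and those in dcat/dcat were -0.55 for Ybx1-127737, -0.64 for Ybx2-108601, -0.23 for Ybx3-087865 and -0.59 for Tarbp2-136968. With at least 10 counts in every library they were -0.19 for Ybx2-018698 and -0.27 for Ybx3-087865 in wt/wt and -0.24 for Ybx2-108601 in dcat/dcat. Ybx2-108601 in wt/wt was at 0.02 with RLE scaling and with DESeq2, 0.00 without a filter and 0.01 with the replicate block. Without the libraries numbered 1, Ybx1-127737 was at 0.18 in wt/wt and Ybx2-108601 at -0.04 in dcat/dcat. For genotype in RS, Ybx3-032309 was at 0.01 with RLE scaling and DESeq2, 0.02 with the block and 0.10 without the libraries numbered 1, where Ddx25-034612 was at -0.02. For genotype in ES, Ybx1-079644 was at 0.01 with at least 10 counts in every library and without the libraries numbered 1, and Ybx3-032309 at -0.00 with RLE scaling, no filter and DESeq2. Leaving out each library gave these ranges. Between stages in wt/wt they were -0.31 to 0.48 for Ybx1-127737, -0.02 to 0.43 for Ybx2-018698, -0.18 to 0.20 for Ybx2-108601, -0.14 to 0.34 for Ybx3-087865 and -1.06 to 0.12 for Tarbp2-136968. Between stages in dcat/dcat they were -0.27 to 0.41 for Ybx1-127737, -0.17 to 0.28 for Ybx2-108601 and -0.43 to 0.55 for Tarbp2-136968. For genotype in RS they were -0.06 to 0.20 for Ybx1-079644, -0.00 to 0.37 for Ybx2-018698, -0.16 to 0.14 for Ybx3-032309, -0.01 to 0.07 for Ddx25-034612 and -0.27 to 0.09 for Tarbp2-023813. For genotype in ES they were -0.22 to 0.12 for Ybx1-079644 and -0.16 to 0.20 for Ybx3-032309.

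Depth limits the ES libraries most, where Boll-114423 and the minor Tarbp2 contigs stood near the floor of 3 counts.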
